A study of Mus musculus with 6 samples.

Results

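The binding of GATA4 and GATA6 was examined at 9 genes of the Hippo pathway in mouse extra-embryonic endoderm (XEN) stem cells. They were the coactivator genes Yap1 and Wwtr1 (which encodes TAZ), the TEAD transcription factor genes Tead1, Tead2 and Tead3, the kinase genes Lats1 and Lats2, and the angiomotin-like genes Amotl1 and Amotl2. These 9 were chosen by name from the 21938 protein-coding genes of the mouse annotation (GENCODE release M21, mm10). A called region was placed at a gene if it overlapped the gene body or the stretch within 50 kb of any annotated transcription start site (TSS) by at least 1 bp.

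In the Hippo pathway, LATS kinases phosphorylate YAP and TAZ and keep them out of the nucleus. YAP and TAZ do not bind DNA themselves and act on genes by joining TEAD factors there. Angiomotin-family proteins tether YAP and TAZ at cell junctions, and in the early mouse embryo the pathway separates the outer trophectoderm from the inner cells that go on to form epiblast and primitive endoderm. GATA4 and GATA6 are zinc finger transcription factors of the primitive endoderm, the lineage from which XEN cells derive.

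The study profiled starting XEN cells with CUT&RUN, in which antibody-bound nuclease releases the DNA around a chromatin protein for sequencing, to find genes that the GATA factors may bind. There were 3 GATA4 libraries and 3 GATA6 libraries, each from 500000 cells of the line 3F2 per the labels. Per the study's methods, the 3F lines came from blastocysts carrying the Col1a1 TetO-OKSmCh cassette (doxycycline-inducible Oct4, Klf4, Sox2 and mCherry), the R26 M2rtTA transactivator and the Oct4-GFP reporter, so both groups share these alleles and no doxycycline treatment or knockout distinguishes them. The labels name a single line, nothing in them ties replicates to separate cultures, and the methods also mention 3F6 and fewer replicates, so the spread between libraries may be technical. No expression values were used here, so the XEN label was not checked against marker expression.

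Each library yielded between 42446 and 49597 called regions. Most were shallow, with a median depth of 4 fragments at the deepest base (the maximum signal) in all 6 lists. The reads left in each library after filtering are unknown, and signal was not scaled for depth. The total signal of a region, its fragment pileup summed over base pairs, is therefore given as a within-list percentile, where 100 is the region of highest total signal in that library. A combined region is one in the authors' list of regions present in all 3 replicates of a factor, of which there were 8282 for GATA4 and 5170 for GATA6. Merging the 6 lists gave 201994 regions, of which 174 lay at the 9 genes.

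Most of the GATA4 combined regions that lay nearest to 1 of these genes, and not to a neighbour, were at Wwtr1 (6) and Tead1 (3) of 11. The sequences below are windows of 201 bp around the midpoints of 8 combined regions, those of highest mean percentile in a member gene or within 10 kb of its TSS, shown because the results turn on these positions. They comprise 5 at Wwtr1, 2 at Tead1 and 1 at Tead2. All are on the plus strand of mm10 in the RefSeq GRCm38 assembly. Capitals mark GATA motifs, which read AGATA or otherwise TGATA before a closing A or G on either strand, and matches to the TEAD motif GGAATG on either strand. Matches that run together in capitals overlap or adjoin.
Wwtr1 intron, 35.2 kb into the gene, chr3:57540561-57540761: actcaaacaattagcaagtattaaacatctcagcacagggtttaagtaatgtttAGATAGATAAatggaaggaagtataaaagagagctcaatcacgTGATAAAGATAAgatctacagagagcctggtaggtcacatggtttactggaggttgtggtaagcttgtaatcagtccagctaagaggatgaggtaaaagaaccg
Wwtr1 intron, 21.1 kb into the gene, chr3:57554702-57554902: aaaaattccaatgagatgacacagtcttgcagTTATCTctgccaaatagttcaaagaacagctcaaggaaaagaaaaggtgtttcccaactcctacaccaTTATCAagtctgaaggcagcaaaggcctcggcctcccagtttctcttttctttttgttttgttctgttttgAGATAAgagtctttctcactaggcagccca
Wwtr1 intron, 4.85 kb into the gene, chr3:57570956-57571156: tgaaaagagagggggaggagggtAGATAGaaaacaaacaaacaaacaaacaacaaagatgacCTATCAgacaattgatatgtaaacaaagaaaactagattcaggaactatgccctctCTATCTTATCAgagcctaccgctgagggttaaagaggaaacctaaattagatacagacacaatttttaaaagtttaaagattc
Wwtr1 start site, chr3:57575860-57576060: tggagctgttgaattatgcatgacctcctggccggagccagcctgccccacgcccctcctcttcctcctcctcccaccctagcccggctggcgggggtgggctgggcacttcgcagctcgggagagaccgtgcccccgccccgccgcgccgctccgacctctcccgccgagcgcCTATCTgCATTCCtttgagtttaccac
Wwtr1 upstream, 7.97 kb before the start, chr3:57583781-57583981: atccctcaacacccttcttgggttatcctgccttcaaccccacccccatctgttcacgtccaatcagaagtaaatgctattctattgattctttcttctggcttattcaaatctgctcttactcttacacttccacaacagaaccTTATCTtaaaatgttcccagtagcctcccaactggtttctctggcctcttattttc
Tead1 intron, 101.9 kb into the gene, chr7:112781086-112781286: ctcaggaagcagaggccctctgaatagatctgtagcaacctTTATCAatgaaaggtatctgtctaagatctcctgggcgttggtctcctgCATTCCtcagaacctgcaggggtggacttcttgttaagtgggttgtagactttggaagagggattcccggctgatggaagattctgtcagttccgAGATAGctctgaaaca
Tead1 intron, 109.1 kb into the gene, chr7:112788285-112788485: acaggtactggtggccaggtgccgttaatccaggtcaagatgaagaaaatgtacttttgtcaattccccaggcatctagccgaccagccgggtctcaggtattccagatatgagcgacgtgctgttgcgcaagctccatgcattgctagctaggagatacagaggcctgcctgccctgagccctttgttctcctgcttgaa
Dkkl1 promoter, 3.51 kb before the start of Tead2, chr7:45212146-45212346: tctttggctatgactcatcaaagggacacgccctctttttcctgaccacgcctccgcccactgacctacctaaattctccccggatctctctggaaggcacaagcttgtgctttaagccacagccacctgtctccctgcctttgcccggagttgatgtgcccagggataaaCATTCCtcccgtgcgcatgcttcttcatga
All but the last pair of windows held a GATA motif. The windows in the Wwtr1 introns held 4, 3 and 4 GATA motifs in the order printed and no TEAD motif, the window at the Wwtr1 start site held 1 of each, and the one 7.97 kb upstream held 1 GATA motif. The Tead1 window 101.9 kb into the gene held 2 GATA motifs and 1 TEAD motif. The Tead1 window 109.1 kb into the gene held neither motif, and the Dkkl1 promoter window held 1 TEAD motif and no GATA motif. Both windows were centred on the GATA4 coordinates. Centred on its GATA6 coordinates, chr7:112788344-112788680, the Tead1 region 109.1 kb into the gene held 1 GATA motif. A match to these letters is a description and not evidence of binding.

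A GATA4 combined region lay at 7 of the 9 genes and a GATA6 combined region at 4 of the 9. Over all protein-coding genes the corresponding shares were 48.2% and 38.3%. The 4 genes with a GATA6 combined region, Yap1, Tead1, Tead2 and Lats2, also had a GATA4 combined region. Wwtr1, Tead3 and Amotl2 had GATA4 combined regions only, 3 of 9 against 14.3% of all genes, and none of the 9 had GATA6 combined regions only, against 4.5% of all genes. Lats1 and Amotl1 had neither. These classes depended on the call in all 3 replicates. With at least 2 of 3 replicates, Wwtr1, Tead3 and Amotl2 had 3, 3 and 2 GATA6 regions too. Amotl1 then had 5 GATA4 regions and no GATA6 region, and Lats1 had 1 GATA6 region and no GATA4 region. The searched locus of these genes was longer than usual, with a median of 139 kb against 104 kb over all genes, and a longer locus can hold more regions, so the counts and the shares over all genes are not on equal terms. No test was made on these counts.

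In number, 20 GATA4 and 7 GATA6 combined regions lay at the 9 genes. Many belonged by position to a neighbouring gene. The nearest protein-coding TSS was the member's own for 11 of the 20 GATA4 regions, at Wwtr1, Tead1, Lats2 and Amotl2, and for 3 of the 7 GATA6 regions, all at Tead1. Of the 20 GATA4 regions, 8 lay at a promoter (within 1 kb of an annotated TSS), 40% against 48.2% of the whole GATA4 list. Of those 8, 7 were at promoters of other genes. Only Wwtr1 had a GATA4 combined region within 1 kb of its own TSS, 1 of 9 genes against 19.8% of all genes, and no member had a GATA6 combined region there, against 13.8% of all genes. When the search was narrowed to 10 kb of a TSS or the gene body, 4 genes kept a GATA4 and 2 a GATA6 combined region. The share over all genes was not computed at that distance. Leaving out 1 GATA6 library, so that the remaining pair had to hold a region, raised the 7 GATA6 regions to 11, 12 and 13 without replicate 1, 2 and 3.

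**Figure D1:**
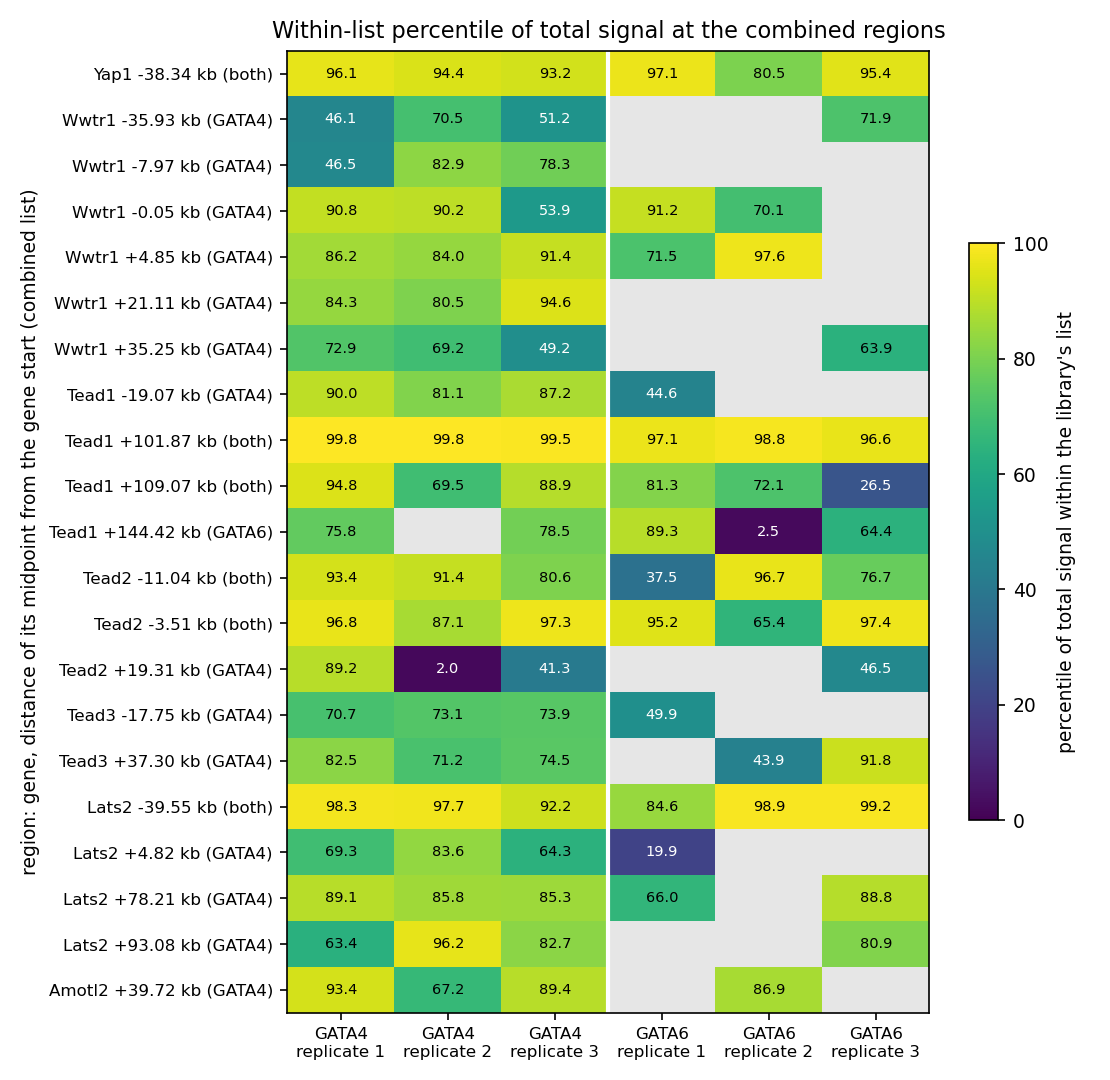
Within-list percentile of total signal (colour and number) of the regions of either combined list at the 9 genes, in each of the 6 libraries (columns). Rows give the gene, the distance of the region's midpoint from the gene start in kb (negative is upstream) and the combined list that holds it, and grey cells mark libraries without a called region. The 6 Wwtr1 rows are filled in all GATA4 libraries and mostly grey for GATA6, and the Tead1 row at 101.87 kb is above 96 in all 6 libraries.

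Called regions per library were counted next, irrespective of whether replicates shared them. In all, 66, 51 and 64 regions lay at the 9 genes in GATA4 replicates 1, 2 and 3, which gave 60.3 ± 8.14 on average (SD, n = 3). For GATA6 there were 49, 39 and 46 regions, or 44.7 ± 5.13 on average (SD, n = 3). Every GATA4 library was above every GATA6 library, which did not hold without Wwtr1. The median over all protein-coding genes leaned the same way, with 3 regions per gene for GATA4 and 2.33 for GATA6. The sum at the 9 genes was not compared with other sets of genes. The GATA4 lists are longer, and as a share of the library the regions at these genes made up 0.125% ± 0.0135 for GATA4 and 0.1002% ± 0.00728 for GATA6 (SD, n = 3). Gene by gene, the GATA4 and GATA6 libraries did not overlap at 2 of the 9 genes, Wwtr1 and Tead3, both with more GATA4 regions, against 5.62% of the 20940 protein-coding genes with a region in any library. No member had GATA6 libraries wholly above, against 1.56% of all genes. With 3 against 3 libraries the two-sided exact permutation test cannot go below p = 0.1, and after Benjamini-Hochberg adjustment over the 20940 genes every adjusted p was 1, so no difference at a single gene passed a test. No gene reached an unadjusted p under 0.05, and 1503 genes stood at 0.1.

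**Figure D2:**
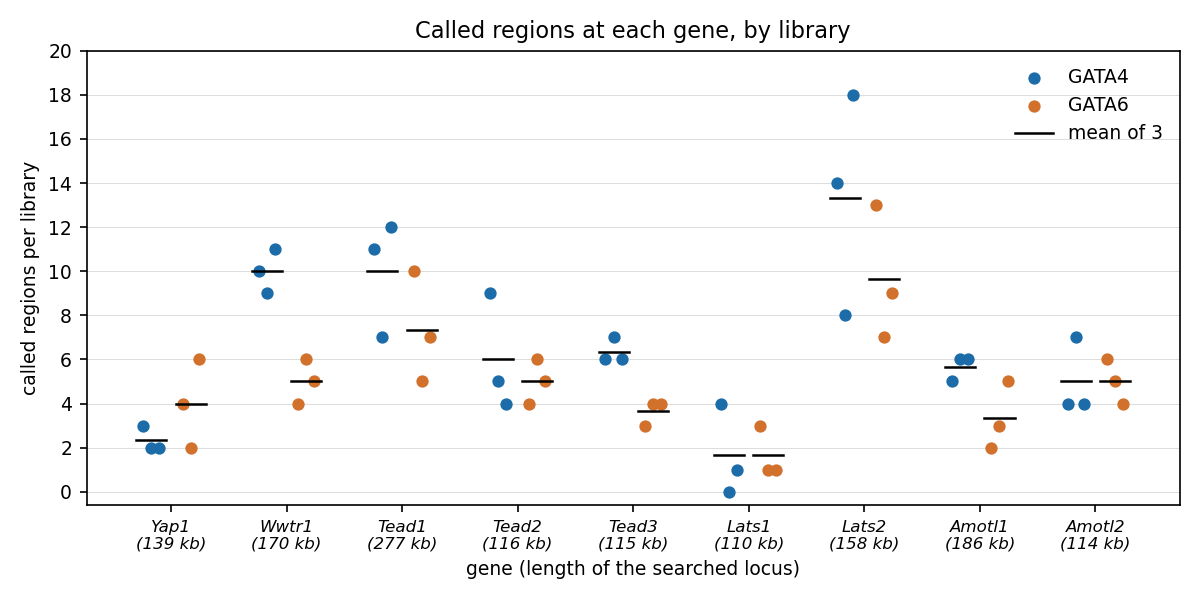
Called regions per library (vertical axis) at each gene, with the length of the searched locus in kb under its name. Dots are the 3 GATA4 and 3 GATA6 libraries and bars their means. At Wwtr1 the GATA4 libraries (9 to 11) sit above the GATA6 libraries (4 to 6), and at Tead3 6 to 7 sit above 3 to 4.

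Among the coactivator genes, Wwtr1 and Yap1 differed in what they held. Wwtr1 (minus strand, chr3:57455649-57575910) had 10, 9 and 11 regions in the GATA4 libraries and 4, 6 and 5 in the GATA6 libraries. The means were 10.0 ± 1.0 and 5.0 ± 1.0 (SD, n = 3), a difference of 5.0 regions that exceeded the spread within each factor but reached only the floor of the exact permutation test (p = 0.1, adjusted p = 1). Over all protein-coding genes with a region, the difference at Wwtr1 stood at percentile 99.2. Leaving out each library in turn kept it between 4.5 and 5.5, and lists cut to equal length gave 4.33.

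All 6 combined regions at Wwtr1 were GATA4 regions, and Wwtr1 was the gene with the nearest TSS for each. At least as many GATA4 combined regions lay at 1.65% of all protein-coding genes. At a threshold chosen after the Wwtr1 value was seen, 3 of 21938 genes had at least 6 GATA4 combined regions and no GATA6 combined region: Limch1, Maml3 and Wwtr1. The region at the start site, centred 0.05 kb upstream of the TSS, had percentiles of 90.8, 90.2 and 53.9 in the GATA4 libraries and was also called in GATA6 replicates 1 and 2, at 91.2 and 70.1. The intronic region 4.85 kb into the gene stood at 86.2, 84.0 and 91.4 for GATA4 and at 71.5 and 97.6 in GATA6 replicates 1 and 2. Absence from the GATA6 combined list thus meant, at both positions, that GATA6 replicate 3 alone lacked the region.

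The other 4 Wwtr1 regions were called in at most 1 GATA6 library each. The intronic region 21.1 kb into the gene stood at 84.3, 80.5 and 94.6 in the GATA4 libraries and was called in no GATA6 library, but the next merged region, chr3:57555443-57556133 in the same intron, was called in GATA6 replicates 2 and 3, at 40.7 and 40.2, and in GATA4 replicate 3, at 61.3. The intergenic region 7.97 kb upstream, at 46.5, 82.9 and 78.3, was likewise called in none. The intronic region 35.2 kb into the gene (72.9, 69.2 and 49.2) and the intergenic region 35.9 kb upstream (46.1, 70.5 and 51.2) were each called in GATA6 replicate 3 only, at 63.9 and 71.9, and the second of these exceeded all 3 GATA4 percentiles of its region. Between 2 and 3 of the 3 GATA6 libraries per position therefore lacked a call at these 4 places, and a region not called in a library may lie below its threshold.

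Yap1 (minus strand, chr9:7931999-8004596) had 3, 2 and 2 GATA4 regions and 4, 2 and 6 GATA6 regions. Its means were 2.33 ± 0.577 and 4.0 ± 2.0 (SD, n = 3), and the libraries overlapped (exact permutation p = 0.4, adjusted p = 1). The only combined region at Yap1, present in both combined lists, lay 38.3 kb upstream at the promoter of Cfap300, a cilia- and flagella-associated protein gene. It was called in all 6 libraries, at 96.1, 94.4 and 93.2 for GATA4 and 97.1, 80.5 and 95.4 for GATA6. Within 1 kb of a Yap1 TSS, regions were called in 3 of the 6 libraries, but the merged region called there most often was held by GATA4 replicate 1 and GATA6 replicate 3 alone, at percentiles of 56.3 and 46.0.

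**Figure D3:**
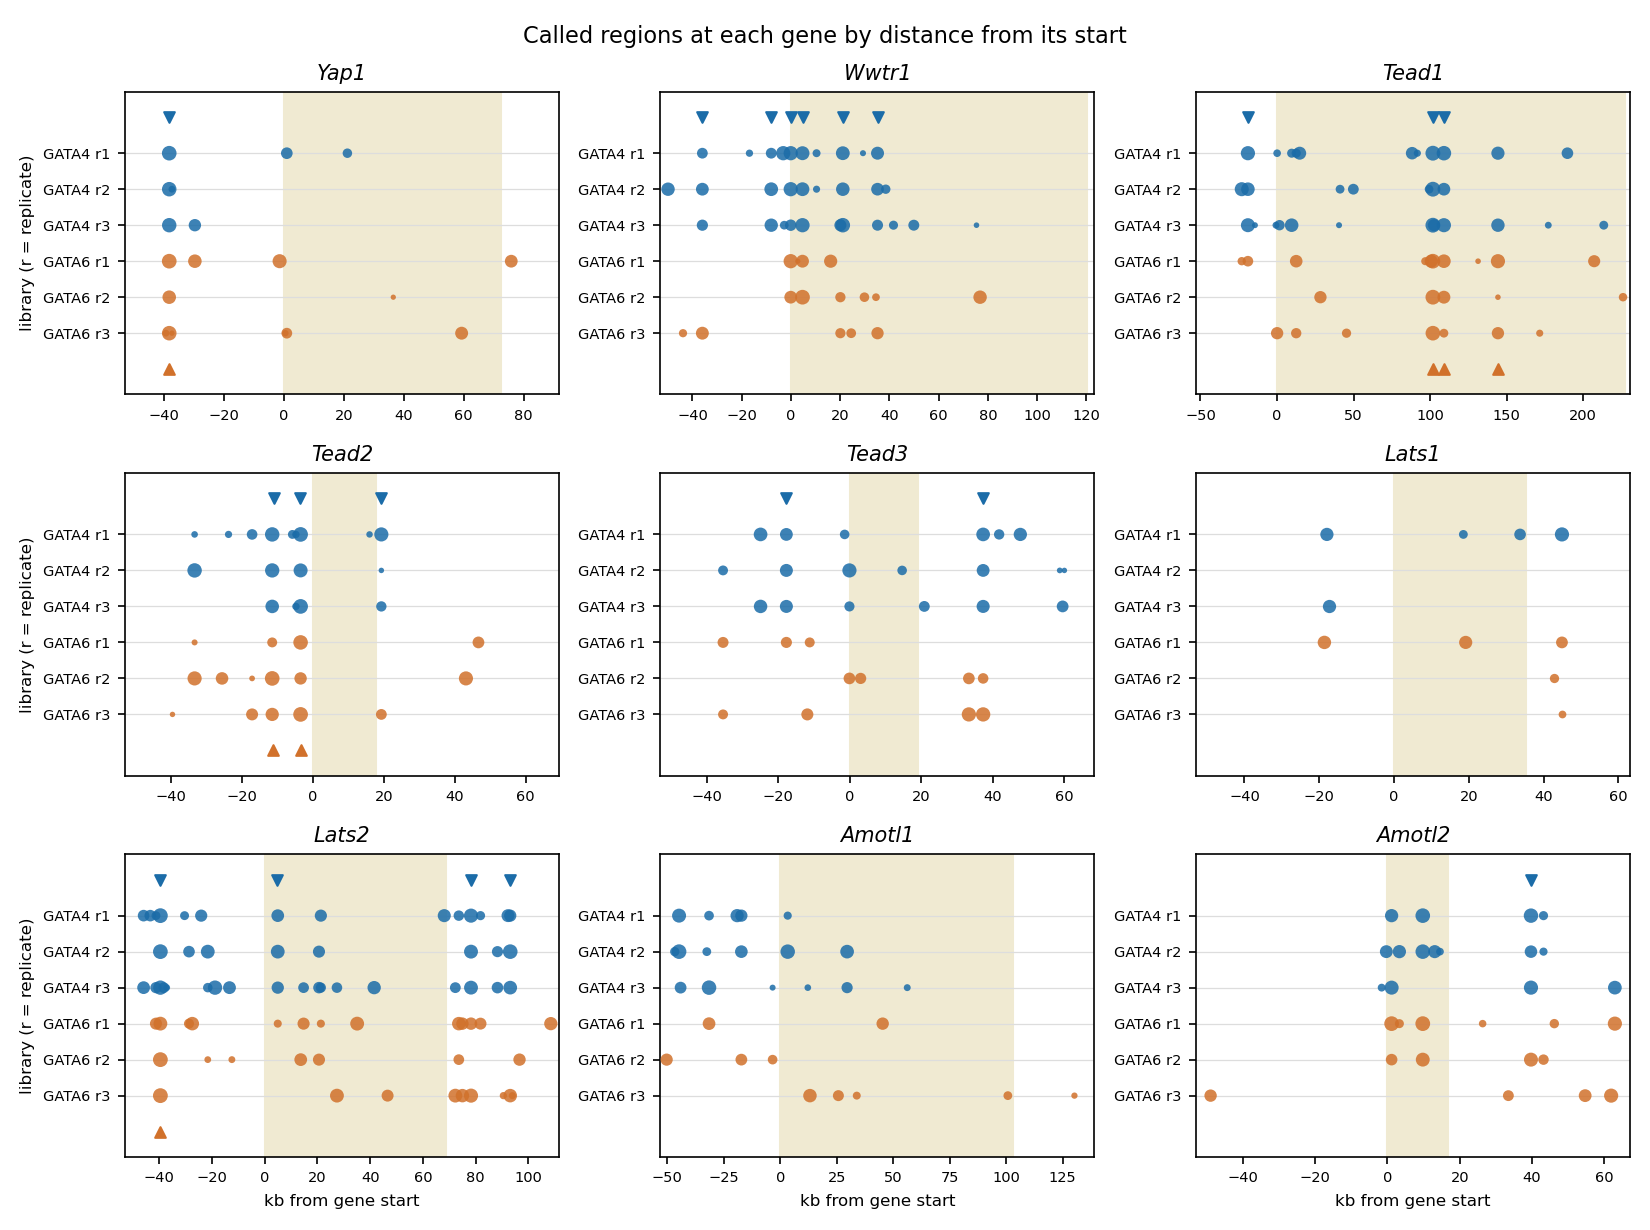
Called regions at each of the 9 genes by distance of the region's midpoint from the gene start (horizontal axis, kb, negative upstream) and library (rows). Shading marks the gene body, dot size rises with the within-list percentile, and triangles above and below mark GATA4 and GATA6 combined regions. Columns of dots over the 3 GATA4 rows stand at 6 positions of Wwtr1, and a column over all 6 rows stands inside Tead1.

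Tead1, Tead2 and Tead3 encode DNA-binding partners of YAP and TAZ. Tead1 (plus strand, chr7:112679318-112906807), the longest of the 9 genes at 227 kb, had 11, 7 and 12 GATA4 regions and 10, 5 and 7 GATA6 regions. The means of 10.0 ± 2.65 and 7.33 ± 2.52 (SD, n = 3) came from libraries that overlapped (exact permutation p = 0.3, adjusted p = 1).

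Tead1 held the region of highest mean percentile among all combined regions at the 9 genes. It lay in an intron, 101.9 kb from the gene start and 21.6 kb from the nearest annotated TSS, and was in both combined lists (GATA4 coordinates chr7:112780812-112781559). Its total signal stood at percentiles 99.8, 99.8 and 99.5 in the GATA4 libraries and at 97.1, 98.8 and 96.6 in the GATA6 libraries. The deepest stack there was 29, 29 and 24 fragments for GATA4 and 11, 12 and 9 for GATA6, against a median of 4 in each list, though stacks cannot be compared between libraries of unknown depth. It thus ranked near the top of the list in all 6 libraries.

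A further intronic Tead1 region 109.1 kb from the gene start was also in both lists, at 94.8, 69.5 and 88.9 for GATA4 and 81.3, 72.1 and 26.5 for GATA6. The region 144.4 kb from the start was the sole GATA6 combined region at the 9 genes that overlapped no GATA4 combined region. It stood at 89.3, 2.49 and 64.4 in the GATA6 libraries and was called in GATA4 replicates 1 and 3 as well, at 75.8 and 78.5, so it was missing from 1 library only. Upstream, 19.1 kb before the gene start and inside the neighbouring annotation 2310014F06Rik, a GATA4 combined region stood at 90.0, 81.1 and 87.2 and was called in GATA6 replicate 1, at 44.6. At the TSSs of Tead1, regions were called in 4 libraries but in no more than 3 at the same place.

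At Tead2 (plus strand, chr7:45215753-45233644) the GATA4 libraries held 9, 5 and 4 regions and the GATA6 libraries 4, 6 and 5. The means of 6.0 ± 2.65 and 5.0 ± 1.0 (SD, n = 3) did not differ beyond the spread (exact permutation p = 0.9, adjusted p = 1), and without GATA4 replicate 1 the difference of 1.0 turned to -0.5. All 3 combined regions lay at promoters of other genes. Both lists held the region 3.51 kb upstream of Tead2, at the promoter of Dkkl1, a dickkopf-like gene, with percentiles of 96.8, 87.1 and 97.3 for GATA4 and 95.2, 65.4 and 97.4 for GATA6. Both also held the region 11.04 kb upstream at the promoter of Ccdc155, at 93.4, 91.4 and 80.6 and at 37.5, 96.7 and 76.7. The third, a GATA4 region at the promoter of the tetraspanin gene Cd37, ranged from 2.02 to 89.2 among the GATA4 libraries. A region at a TSS of Tead2 itself was called in 1 library.

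Tead3 (minus strand, chr17:28331671-28350817) had 6, 7 and 6 GATA4 regions and 3, 4 and 4 GATA6 regions. The means of 6.33 ± 0.577 and 3.67 ± 0.577 (SD, n = 3) differed by 2.67 regions without overlap of the libraries (exact permutation p = 0.1, adjusted p = 1), and the difference kept its sign without each library, between 2.33 and 2.83. Of the 17 merged regions at Tead3, 11 were called in a single library. Most of the 17 were nearest to a TSS of Ppard, Fance, Rpl10a or Tulp1. Among the regions nearest to Tead3 itself, the counts of the GATA4 and GATA6 libraries overlapped. The 2 combined regions at Tead3 were GATA4 regions nearer to other genes. The region at the promoter of Fance, a Fanconi anaemia gene, stood at 82.5, 71.2 and 74.5 and was called in GATA6 replicates 2 and 3, at 43.9 and 91.8. The region 17.7 kb upstream of Tead3, 3.34 kb from a TSS of Tulp1, stood at 70.7, 73.1 and 73.9 and was called in GATA6 replicate 1, at 49.9. Around the 5′ end of Tead3 itself, a region was called in GATA4 replicates 2 and 3 and GATA6 replicate 2, at 89.6, 39.3 and 56.7.

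Of the kinase genes, Lats2 had the most regions of the 9 genes and Lats1 the fewest. Lats2 (minus strand, chr14:57689662-57758388) had 14, 8 and 18 regions in the GATA4 libraries and 13, 7 and 9 in the GATA6 libraries. The means of 13.3 ± 5.03 and 9.67 ± 3.06 (SD, n = 3) overlapped (exact permutation p = 0.4, adjusted p = 1). Lats2 lies on a chromosome where regions were dense on average. Chromosome 14 carried 3.97 GATA4 and 4.01 GATA6 regions per 100 kb, where the chromosomes of the other 8 genes carried between 1.42 and 1.61 GATA4 regions and between 1.23 and 1.43 GATA6 regions. The Lats2 locus had 8.41 and 6.10 regions per 100 kb, which was 2.12 and 1.52 times its chromosome, while Wwtr1 had 5.87 and 2.94, or 4.14 and 2.39 times its own. A chromosome average also covers stretches far from genes, so these ratios do not compare a gene with other genes. The medians over all protein-coding genes were 2.27 GATA4 and 1.98 GATA6 regions per 100 kb. The part of the average density of chromosome 14 in the Lats2 counts was not tested, and density along the chromosome was not examined.

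Of the 4 GATA4 combined regions at Lats2, a single one lay in the gene, in an intron 4.82 kb from the start, at 69.3, 83.6 and 64.3, and it was called in GATA6 replicate 1 at 19.9. The region 39.6 kb upstream, at the promoter of Sap18, which encodes a subunit of a histone deacetylase complex, was called in all 6 libraries and was in both combined lists. It stood at 98.3, 97.7 and 92.2 for GATA4 and 84.6, 98.9 and 99.2 for GATA6. The remaining regions, downstream of Lats2, were nearest to Xpo4, an exportin gene, 1 at its promoter and 1 in an intron of the overlapping annotation Gm49361.

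Lats1 (plus strand, chr10:7681214-7716460) had 4, 0 and 1 GATA4 regions and 3, 1 and 1 GATA6 regions. Both means were 1.67, with SDs of 2.08 and 1.15 (n = 3). Of its 8 merged regions, 7 were called in a single library, and none lay within 1 kb of a Lats1 TSS in any library. With 1.51 regions per 100 kb for either factor, Lats1 stood close to the average of chromosome 10 (1.58 for GATA4 and 1.40 for GATA6). Among all protein-coding genes it stood below the middle, at percentile 35.5 by GATA4 density and 38.8 by GATA6 density.

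The angiomotin-like genes differed from each other. Amotl1 (minus strand, chr9:14541966-14645056) had 5, 6 and 6 GATA4 and 2, 3 and 5 GATA6 regions, with means of 5.67 ± 0.577 and 3.33 ± 1.53 (SD, n = 3; exact permutation p = 0.2, adjusted p = 1). None of its 19 merged regions was called in all 3 libraries of either factor, and 13 were called in a single library. At Amotl2 (plus strand, chr9:102716672-102733418) there were 4, 7 and 4 GATA4 regions and 6, 5 and 4 GATA6 regions, with both means at 5.0. Its single combined region, a GATA4 region in an exon of the neighbouring annotation Gm5627, 39.7 kb from the Amotl2 start, stood at 93.4, 67.2 and 89.4 and was called in GATA6 replicate 2 at 86.9.

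Amotl2, which is also known as a target gene of YAP and TEAD, had regions at and in the gene that missed the combined lists by 1 library of each factor. An intronic region 9.79 kb from the start was called in GATA4 replicates 1 and 2, at 95.95 and 94.98, and in GATA6 replicates 1 and 2, at 98.0 and 85.6. A region near the 5′ end, with its midpoint in an exon and at an annotated TSS, was called in GATA4 replicates 1 and 3, at 76.9 and 87.6, and in GATA6 replicates 1 and 2, at 97.2 and 55.6. Within 1 kb of some Amotl2 TSS, 5 of the 6 libraries had a region, as at Wwtr1.

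Per length, the order of the genes by mean GATA4 density was Lats2, Wwtr1, Tead3, Tead2, Amotl2, Tead1, Amotl1, Yap1 and Lats1, from 8.41 to 1.51 regions per 100 kb of searched locus. The libraries of neighbours in this order overlapped, with the exception of Amotl1 (2.69 to 3.23) and Yap1 (1.44 to 2.16). Over all protein-coding genes the medians were 2.27 for GATA4 and 1.98 for GATA6. Lats2, Wwtr1, Tead3 and Tead2 stood at percentiles 95.3, 88.0, 86.2 and 84.2 of all genes by GATA4 density. For GATA6 the same genes stood at 91.6, 68.4, 72.1 and 83.0, and Yap1, at 40.3 for GATA4, stood at 67.7.

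**Figure D4:**
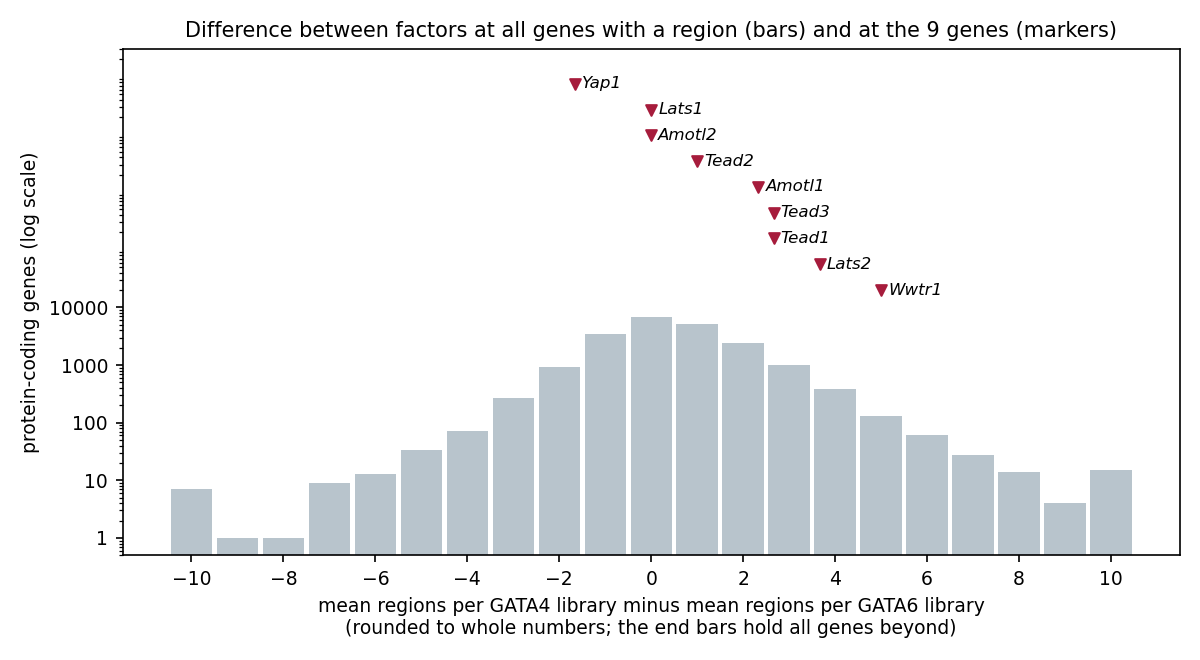
Mean regions per GATA4 library minus mean regions per GATA6 library (horizontal axis, regions) for the 20940 protein-coding genes with a region (bars, log scale). Markers place the 9 genes on the horizontal axis only, and their height has no meaning. Wwtr1 at 5.0 lies furthest to the right and Yap1 at -1.67 furthest to the left of the 9.

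Sharing between factors was read from the merged regions. Of the 174 at the 9 genes, 14 were held by at least 2 libraries of each factor, 8.05% against 4.3% of all merged regions, and 6 by all 6 libraries, 3.45% against 1.88% of all merged regions and 2.48% of those at any protein-coding gene. The 6 were the intronic Tead1 regions 101.9 and 109.1 kb from its start, the promoter regions of Dkkl1 and Ccdc155 at Tead2, that of Cfap300 at Yap1 and that of Sap18 at Lats2. Tead1 was thus the sole member with regions of its own in all 6 libraries. Another 70 merged regions were held by no GATA6 library and 55 by no GATA4 library, and 112 by a single library. Regions in at least 2 libraries made up 35.6% at the 9 genes, 19.9% at any protein-coding gene and 16.8% of all merged regions. The count of 14 fell to 8 without GATA6 replicate 1 and to 8 without GATA6 replicate 2, since then both remaining GATA6 libraries had to hold a region. For the count of 14, the share among regions at any protein-coding gene was not computed, so its background includes regions far from genes.

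The GATA motif was sought within 100 bp of the midpoint of each combined region. It was present in 11 of the 20 GATA4 regions at the 9 genes, 55% (exact Clopper-Pearson 95% interval 31.5 to 76.9, counting error only), and in 39.9% of the whole GATA4 list. Within 50 bp the shares were 25% and 25.1%, and within 150 bp 55% and 49.5%, so the difference from the list varied with the width of the window. All 6 Wwtr1 regions held it, and 5 of the other 14. The G and C content of the Wwtr1 windows was 38.3%, 41.3% and 35.3% in the introns, 68.7% at the start site and 42.8% and 54.7% upstream. The median of the GATA4 list was 52.7%, and the motif shares were not adjusted for base composition. By position, 10 of the 11 regions nearest to a TSS of the member itself held a GATA motif and 1 of the 9 nearest to another gene did, a division made after the motifs had been seen. Of these 9, 7 were promoters.

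The TEAD motif was present in 4 of the 20 GATA4 regions, 20% (5.73 to 43.7), against 14.1% of the list, and within 50 bp 5% against 7.38%. They were the Wwtr1 start site, the Tead1 region 101.9 kb from the start, the Dkkl1 promoter at Tead2 and the region upstream of Tead3. The AP-1 motif TGANTCA, sought in the same way, was found in 1 of the 20 regions, that of the Dkkl1 promoter, against 7.46% of the list. Of the 7 GATA6 regions, 4 held a GATA motif, against 33.1% of the GATA6 list, and 2 a TEAD motif, against 12.4%. The intervals around all these shares are wide and include those of the whole lists.

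The other genes of the pathway were described on the same terms. Of 30 further Hippo genes, among them Tead4, the MST kinase genes Stk3 and Stk4, Nf2 and Amot, 20 (66.7%, against 48.2% of all genes) had a GATA4 combined region and 15 (50%, against 38.3%) a GATA6 combined region, and 10 had neither. GATA4 libraries lay wholly above at 4 of them (Rassf1, Frmd6, Mob1b and Stk4) and GATA6 libraries at 2 (Dchs1 and Stk38l), against 5.62% and 1.56% of all genes with a region, and no adjusted p was below 1. The most GATA4 combined regions were at Rassf1, whose product binds MST kinases, with 7 GATA4 and 3 GATA6 combined regions and 13, 12 and 11 against 8, 7 and 8 called regions. Ajuba, a LIM protein gene of chromosome 14, followed with 4 and 5, Taok2, a kinase gene, with 4 and 2, and Wwc2, a relative of the Hippo regulator KIBRA on chromosome 8, with 3 and 3. Tead4, the remaining TEAD gene, had 1 GATA4 and no GATA6 combined region. No combined region at Rassf1 lay within 1 kb of its TSS. For these genes and the targets below, regions nearer to a neighbouring gene were not set apart, so counts may include them.

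Of 21 genes known as YAP and TEAD targets, 14 (66.7%, against 48.2% of all genes) had a GATA4 combined region. A GATA6 combined region lay at 12 (57.1%, against 38.3%), and 6 had neither. At none did the libraries of the factors separate, against 5.62% (GATA4 higher) and 1.56% (GATA6 higher) of all genes with a region. Myof, which encodes myoferlin, held 12 GATA4 and 5 GATA6 combined regions, with 29, 32 and 33 against 27, 23 and 30 called regions. Ajuba, which is in this list too, had 4 and 5, Dock5, a Rac exchange factor gene, 4 and 3, and Ankrd1, a cardiac ankyrin repeat gene, 2 and 3. Myof and Ankrd1 lie on chromosome 19 and Ajuba and Dock5 on chromosome 14. Regions were dense on average on chromosomes 19, 14 and 8, with 4.51, 3.97 and 4.73 GATA4 regions per 100 kb. The part of this density in their counts was not tested. The classical targets Ccn1 and Ccn2 each had 1 GATA4 and no GATA6 combined region. The share with a GATA4 combined region was 66.7% in both lists and 77.8% among the 9 genes. The share with a GATA6 combined region was 57.1% of the targets (12 of 21), 50% of the other Hippo genes (15 of 30) and 44.4% of the 9 genes (4 of 9). The lists are small and their shares were not compared by a test, so no order is read from them. Ptpn14, like Ajuba, is in both lists. The loci of both lists were longer than the median over all genes, at 132 kb for the other Hippo genes and 111 kb for the targets.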

How the data were processed

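Groups were taken from the sample titles. Per the study's methods, the authors used Bowtie2 (2.3.4.1 in the submitters' processing notes) to map read pairs to mm10, removed duplicates, reads of mapping quality under 20, mitochondrial reads and blacklisted regions, and called regions per library with SEACR 1.3 at a numeric threshold of 0.01, unnormalised and stringent. As described, the call used no IgG control. Such a threshold keeps a top share of signal blocks, so list length says little about the number of true sites. The deposited total and maximum signal of each region are fragment pileups that the authors did not scale for depth. The combined lists hold positions only, and merging the 3 lists of a factor gave the same coordinates in 8282 of 8282 and 5170 of 5170 regions.

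Members, gene lists and tests were chosen with earlier results of these data known. All 9 members were named. Of the other pathway lists, the 4 genes with most GATA4 combined regions were named (ties broken by GATA6 combined regions, then by name), and other genes there were named after their values were seen. Single regions were named if in a combined list or in at least 5 libraries, and the Yap1, Wwtr1, Tead3 and Amotl2 regions outside these were named after their values were seen. Sequence was shown for the 8 regions of highest mean percentile within 10 kb of a TSS or in the gene body. Distances run from the region's midpoint, the percentile is that of the highest overlapping region, and TSSs include all annotated transcripts of protein-coding and lncRNA genes, of which only protein-coding ones served as nearest genes. Regions per gene were compared by two-sided exact permutation tests, adjusted over all genes (Benjamini-Hochberg). No p is given for sums over the members. Same-numbered libraries did not deviate together (correlations between -0.0283 and 0.0317), so replicate numbers were not treated as pairs. At most 13 regions were identical between any pair of libraries. Counting, merging and the test were checked on simulated lists. Alternatives changed the distance, list length, overlap, number of libraries and motif window. The tools were samtools 1.23.1, pysam 0.24.0, matplotlib 3.10.9, scipy 1.17.1 and numpy 2.4.6 under Python 3.11.15.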

Additional observations from a re-analysis of the deposited data

How the results depend on the processing

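The GATA4 excess of 15.7 called regions per library at the 9 genes kept its sign in all alternatives tried, also as a share of the library and in base pairs. It was 5.67 in the gene body and 17.0 within 100 kb, with 11.3 in lists of equal length and 7.0 in lists of 21223 regions. Leaving out each library gave 12.8 to 20.3. With replicate block the difference stayed 15.7, and no single gene reached an exact sign-flip p below 0.25, the smallest 3 pairs allow. Not every library correlated best with the library of its own number. After the data were seen, leaving out Lats2 gave 12.0 and leaving out Wwtr1 10.7. The sign held, but the GATA4 libraries were not all above the GATA6 libraries in every alternative. They were not in the gene body, in base pairs, in lists of 21223 regions or without Wwtr1.

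The 7 genes with a GATA4 combined region became 4 within 10 kb, 3 in the gene body and 4 where the nearest TSS had to be the member's (added after seeing the data), and leaving out each library gave 8. The 20 regions became 10, 7 and 11 in the same order and 40 with at least 2 of 3 replicates, with 25 to 28 on leaving out each library. The 4 genes with a GATA6 combined region became 2, 1 and 1, and 8 with at least 2 of 3 replicates, with 6 on leaving out each library. The 7 GATA6 regions became 4, 3 and 3 in the same order, 14 within 100 kb, 22 with at least 2 of 3 replicates and 4 in stricter lists, with 11 to 13 on leaving out each library. Shares of all genes with a combined region were not computed under these alternatives, so the shares at 50 kb are no background for them. The 14 merged regions of both factors became 8 within 10 kb, 7 in the gene body and 6 when all 3 libraries of each factor were required, with 8 to 12 on leaving out each library. The GATA motif share of 55% fell to 25% and the TEAD share of 20% to 5% within 50 bp, against 25.1% and 7.38% of the whole list, so the GATA share was then level with the list and the TEAD share below it. Centred on the maximum signal, the GATA share of 55% stood against 44.3%. The Tead2 difference changed sign, to -0.5 without GATA4 replicate 1. The differences of Lats1 and Amotl2, both 0, ranged from -1.17 to 0.833 and from -1.0 to 0.5 on leaving out each library.

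Depth after filtering is unknown, so a region not called in a library was not detectable at its threshold and is not shown to be absent.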
